A study of Rattus norvegicus with 18 samples.

Results

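The inferior sinoatrial node (iSAN), a strip of tissue that lies toward the inferior vena cava, was compared with the neighboring right atrium (RA) across all genes. The comparison used 8 of the 18 libraries of the series: 4 iSAN libraries and 4 RA libraries, identified by the tissue label. The title suffix ties 1 iSAN and 1 RA library to each of 4 rats, called rat 1 to rat 4 below. All were untreated male Sprague Dawley rats, 59 days old for rats 1 and 2 and 70 days old for rats 3 and 4. The other 10 libraries came from the superior node (sSAN, 4), left atrium (LA, 4) and left ventricle (LV, 2). Pieces were cut by hand at positions found by optical mapping in other hearts, so each library is a mixture of the cells in its piece. In such a mixture, fewer cells of a type and less RNA per cell cannot be told apart.

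The sinoatrial node sets the heartbeat. Its cells drift toward threshold between beats, carried by the hyperpolarization-activated "funny" current of HCN channels, by calcium channels and by calcium released from the sarcoplasmic reticulum. Node identity is held by the transcription factors Isl1, Shox2, Tbx18 and Tbx3, and Tbx3 represses the program of working atrial muscle (Nkx2-5, Nppa, fast connexins). Node cells sit in dense connective tissue and are reached by sympathetic and vagal fibers, with nerve ganglia and fat close by. Insulin-like growth factors, bone morphogenetic proteins (BMP) and WNT signals shape both muscle and matrix around them.

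Of 14066 genes tested, 1463 (10.4%) were higher and 867 (6.16%) were lower in the iSAN than in the RA at an adjusted p under 0.05 (edgeR quasi-likelihood test with Benjamini-Hochberg adjustment, the source of every adjusted p below unless another fit is named). Fold changes are given as log2, iSAN over RA, ± SE, and levels as CPM (counts scaled to library size, as in edgeR), in the order of rats 1 to 4. The SE was derived from the quasi-likelihood test, as the absolute log2 fold change divided by the square root of its F statistic. The median log2 fold change was 0.01 over all genes, 1.00 over the higher genes and -0.46 over the lower ones. More than 2-fold differences were counted for 735 higher and 81 lower genes. Of the higher genes 1450 were higher in all 4 rats, and of the lower genes 862 were lower in all 4. All 4 iSAN libraries were above all 4 RA libraries for 12.5% of all tested genes and below them for 9.76%. With the rat as a block, 11.6% were higher and 8.28% were lower. At an adjusted p under 0.01 and a fold over 3, 256 genes (1.82%) were higher and 17 (0.121%) were lower. The lower count was 512, 567, 491 or 487 without the RA library of rat 1, 2, 3 or 4, and 432 without the iSAN library of rat 3. Of the stringent counts, the higher one was 135 to 156 without any single RA library or the iSAN library of rat 3 and 394 without the iSAN library of rat 1, and the lower one was 10 without the iSAN library of rat 3. The plot of all tested genes shows this asymmetry, with a tall cloud of higher genes and a shallow band of lower ones.

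**Figure D1:**
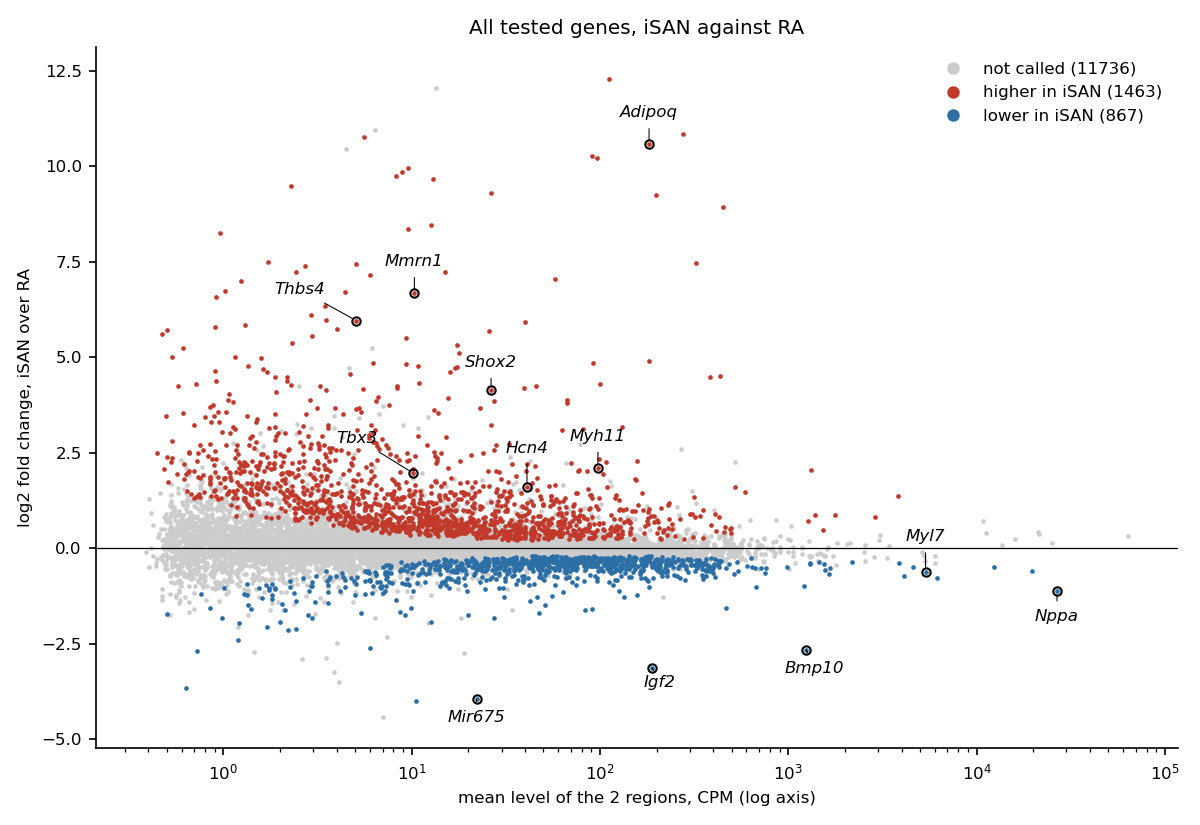
Each point is 1 of 14066 genes, with the mean CPM of both regions on a log axis and the log2 fold change, iSAN over RA, on the vertical axis; 1463 higher genes are red and 867 lower genes are blue. Named genes are circled, and the lower genes lie mostly in a narrow band near 0 while Igf2, Mir675 and Bmp10 lie well under it.

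Libraries held 18027671 to 21240502 counts in the iSAN and 18548014 to 19946678 in the RA. On the first principal component (67.7% of the variance of the 1000 most variable genes), the RA libraries lay between 33.4 and 36.5. The iSAN of rat 1 lay at -12.7, nearest to the RA, and those of rats 2, 3 and 4 lay at -51.1, -37.0 and -37.5. In rat 1 the higher genes had a median log2 difference of 0.66, against 0.90, 1.02 and 0.87 in rats 2 to 4, and the lower genes had -0.32, against -0.64, -0.51 and -0.41. Mitochondrially encoded genes held 21.7% ± 4.23 of the counts in the iSAN and 17.5% ± 1.01 in the RA (SD, n = 4 each; exact permutation test over libraries, two-sided, p = 0.0286). That difference of 4.21 percentage points was 2.12 points without the iSAN library of rat 2, which held 28.0%. Leaving out any single library gave an exact permutation p of 0.0571, the smallest that 3 against 4 libraries allow, and an exact sign-flip permutation test over the 4 rats gave p = 0.125, likewise the smallest possible.

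The labels matched their markers in part. Hcn4, Shox2 and Tbx3 were higher in the iSAN, Nppa and Myl7 were higher in the RA, and Nppa was still at 11607 CPM or more in all 4 iSAN libraries. Gja5, listed as a working atrial marker, was higher in the iSAN, and Tbx18 and Myl4 did not pass the test. With the rat as a block, Myl4 passed (adjusted p = 0.022).

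Pacemaker channels were called in both directions, mostly as lower. Of 13 tested members, 2 were higher (15.4%) and 8 were lower (61.5%), with a median log2 fold change of -0.45. Over all tested genes 10.4% were higher and 6.16% were lower, and each list count below is to be read beside these shares. The member with the smallest p was higher. Hcn4 (ENSRNOG00000009450, chromosome 8, 63600663 to 63639654 in the deposited rat Ensembl release 98 annotation), the main funny-current channel of the node, stood at 59.7, 50.2, 73.4 and 63.2 CPM in the iSAN and at 23.1, 20.8, 18.7 and 18.6 CPM in the RA. The lowest iSAN library was above the highest RA library by a wide margin, and the log2 fold change was 1.60 ± 0.12 (adjusted p = 8.9e-05).

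FPKM divides the fragment count by gene length and depth. On that scale Hcn4 stood above Hcn2 in the iSAN, with means of 11.3 against 4.43 FPKM. In the RA the means were 4.53 FPKM for Hcn2 and 3.66 FPKM for Hcn4, so the order of the means was the reverse. That order was not tested and is not claimed for each RA library. Hcn2 ranged from 8.70 CPM (rat 2) to 13.2 CPM (rat 4) over the RA libraries. Hcn2 itself gave a log2 fold change of -0.05 ± 0.22 (adjusted p = 0.90).

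Calcium channel genes lay on the other side. Cacna1d, the low-threshold L-type pore known to drive node pacemaking in mouse, stood at 26.5, 13.2, 15.9 and 19.9 CPM in the iSAN and at 41.6, 40.8, 44.4 and 30.2 CPM in the RA. Every iSAN library was below every RA library (log2 -1.05 ± 0.21, adjusted p = 0.012). Both T-type pores were lower as well, Cacna1g by a log2 fold change of -0.60 ± 0.11 (adjusted p = 0.0046) and Cacna1h by -0.84 ± 0.15 (adjusted p = 0.0063). Cacna2d2, an auxiliary subunit that brings calcium channels to the membrane, gave -0.75 ± 0.16 (log2, adjusted p = 0.011). Kcnj3 and Kcnj5, which together form the acetylcholine-gated potassium channel through which the vagus slows the heart, were lower with log2 fold changes of -0.73 (adjusted p = 0.0088) and -0.56 (adjusted p = 0.0035).

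**Figure D2:**
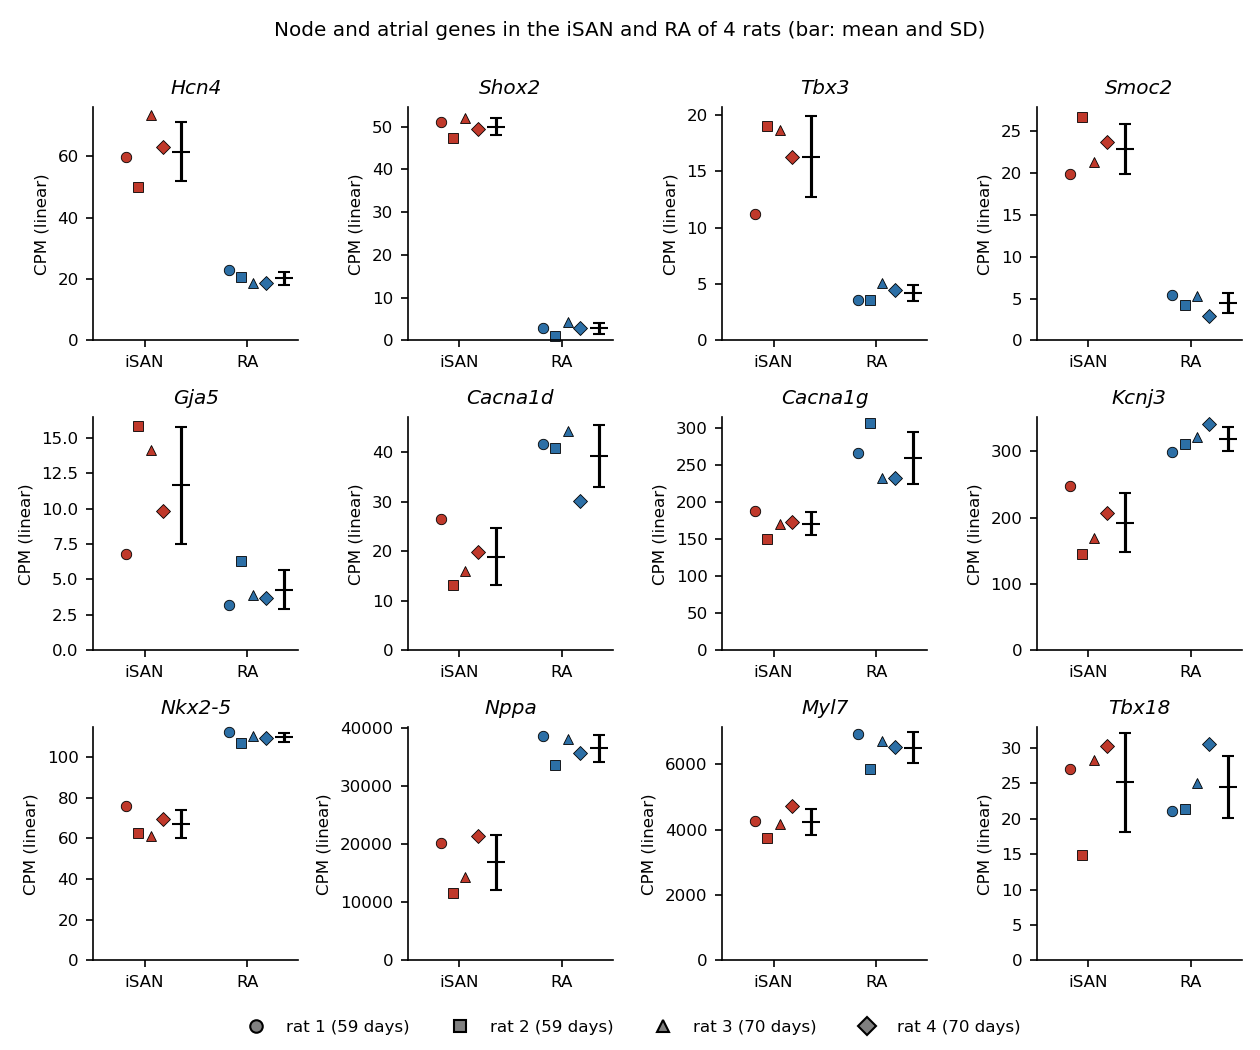
Points are CPM on linear axes in the iSAN (red) and RA (blue) of 4 rats, with a marker shape for each rat, and the bar beside them gives the mean and SD (n = 4). Hcn4, Shox2, Tbx3, Smoc2 and Gja5 are higher in every iSAN library than in any RA library, Cacna1d, Cacna1g, Kcnj3, Nkx2-5, Nppa and Myl7 are lower in every one, and Tbx18 overlaps.

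Node factors and markers included 20 tested genes, of which 7 were higher and 3 were lower (median log2 fold change 0.07). Shox2, a homeobox factor that keeps Nkx2-5 out of node cells in mouse, stood at 51.1, 47.4, 52.0 and 49.4 CPM in the iSAN and at 2.99, 1.15, 4.24 and 2.90 CPM in the RA. The iSAN values lay close together, and the log2 fold change was 4.14 ± 0.29 (adjusted p = 1.6e-04). Tbx3, the repressor of the atrial program, stood at 11.2, 18.96, 18.6 and 16.3 CPM against 3.61, 3.59, 5.07 and 4.43 CPM, again with no overlap (log2 1.96 ± 0.19, adjusted p = 2.6e-04). Smoc2, a secreted calcium-binding matrix protein, was higher by a log2 fold change of 2.35 ± 0.19 (adjusted p = 1.3e-04). Cpne5 and Ntm, recent node markers with membrane-binding and cell-adhesion roles, were higher by 2.47 (adjusted p = 0.0026) and 2.01 (adjusted p = 0.0033) on the log2 scale.

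Isl1, the LIM-homeobox factor of node progenitors, was below the low-count filter and so was not among the tested genes. Its raw counts were 8, 27, 59 and 73 in the iSAN and 0, 0, 0 and 1 in the RA. The ratio of depth-scaled counts was 164.5, with a 95% exact interval of 29.1 to 6537 that covers counting error only. Without the filter, the log2 fold change was 6.79 (adjusted p = 0.000995).

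Other factors did not follow. Tbx18, which marks the node head in mouse, stood at 26.98, 14.9, 28.3 and 30.3 CPM in the iSAN and at 21.1, 21.4, 25.0 and 30.5 CPM in the RA. The ranges overlapped (log2 0.04 ± 0.22, adjusted p = 0.93). Tbx5, an activator shared by node and atrium, was lower in the iSAN (log2 -0.64 ± 0.11, adjusted p = 0.0046), as was Rgs6, which shortens the muscarinic signal (log2 -0.65 ± 0.15, adjusted p = 0.016).

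The atrial factors and chamber program moved mostly downward: 11 of 19 tested genes were lower and 2 were higher, with a median log2 fold change of -0.56. Nkx2-5, the homeobox factor of working muscle, stood at 75.8, 62.3, 61.0 and 69.3 CPM in the iSAN and at 112, 107, 110 and 109 CPM in the RA. No iSAN library reached the RA range, which was narrow (log2 -0.71 ± 0.08, adjusted p = 4.7e-04). Nppa, which encodes atrial natriuretic peptide, stood at 20282, 11607, 14330 and 21486 CPM in the iSAN and at 38670, 33651, 38206 and 35689 CPM in the RA. Again the groups did not overlap (log2 -1.11 ± 0.19, adjusted p = 0.0044). Myl7, the atrial regulatory myosin light chain, had a log2 fold change of -0.62 ± 0.11 (adjusted p = 0.0040). Corin, the protease that activates the natriuretic peptide, was lower by -0.81 ± 0.16 on the log2 scale (adjusted p = 0.0091), and Tbx20, a muscle T-box factor, by -0.56 ± 0.12 (adjusted p = 0.012). With all 5 regions in 1 fit, Nkx2-5 and Myl7 kept their direction and missed the threshold (adjusted p = 0.061 and 0.059).

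The NK2 family factors to which Nkx2-5 belongs are known to bind the core CAAGTG. The upstream bases of Nppa and Myl7 are shown because theirs were the only promoters of this gene list in which the core was found; they come from RefSeq on build GRCr8, a later build than the deposited annotation, and the core is in capitals.
Nppa, 150 bases upstream, chr5:163712034-163712183, plus strand: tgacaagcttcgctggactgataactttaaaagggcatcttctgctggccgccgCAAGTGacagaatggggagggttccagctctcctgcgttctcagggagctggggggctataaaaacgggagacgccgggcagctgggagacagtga
Myl7, 200 bases upstream, chr14:84996625-84996824, minus strand: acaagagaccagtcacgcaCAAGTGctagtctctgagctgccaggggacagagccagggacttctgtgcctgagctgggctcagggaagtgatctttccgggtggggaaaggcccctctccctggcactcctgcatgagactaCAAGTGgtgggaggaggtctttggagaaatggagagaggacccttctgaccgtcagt
The core begins 96 bases upstream of the Nppa start, and 181 and 57 bases upstream of the Myl7 start. It was searched on both strands of the 250 bases upstream of 33469 promoters and was found in 11.7% of them, and in 2 of the 13 genes of the atrial list that had a promoter entry. A match in this window is a description of the sequence and shows no binding.

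Gja5, the fast connexin of atrial muscle and also of arterial endothelium, stood at 6.78, 15.8, 14.1 and 9.83 CPM in the iSAN and at 3.20, 6.30, 3.93 and 3.72 CPM in the RA (log2 1.44 ± 0.30, adjusted p = 0.011).

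Bmp10, a BMP ligand made by right atrial muscle, varied widely within the iSAN, at 731, 72.9, 153 and 407 CPM, and stood at 2697, 2105, 2150 and 1659 CPM in the RA. Every iSAN library was below the RA range (log2 -2.66 ± 0.71, adjusted p = 0.048). The call was lost with the rat as a block (log2 -3.12, adjusted p = 0.079), without the low-count filter (log2 -2.67, adjusted p = 0.078) and when any 1 library other than the iSAN of rat 1 was left out (adjusted p up to 0.11, without the iSAN of rat 3). With 1 library left out, the log2 fold change lay between -3.35 and -2.33.

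Sarcomere genes gave 9 lower and 1 higher of 20 tested, with a median log2 fold change of -0.37. Nebl, a thin-filament anchor at the Z-disc, and Actn2, the Z-disc crosslinker, were lower by -0.68 ± 0.12 (adjusted p = 0.0054) and -0.58 ± 0.12 (adjusted p = 0.011) on the log2 scale. The count of lower members was 15 with the rat as a block, 5 without the RA library of rat 3 and 4 without the RA library of rat 4 or the iSAN library of rat 3. Outside the sarcomere list, Myl2, the ventricular light chain, was higher, at 0.948, 3.80, 3.60 and 8.19 CPM in the iSAN and at 0.258, 0.104, 0.414 and 0 CPM in the RA (log2 4.37 ± 0.83, adjusted p = 0.0093). Myh7, the slow myosin heavy chain and a member of the sarcomere list, gave -0.32 ± 0.13 (adjusted p = 0.12).

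Of 11 tested sodium channel genes, 5 were higher and none was lower (median log2 fold change 0.77); 1 was lower with the rat as a block or without the iSAN library of rat 1. Scn7a, a sodium-sensing channel of glia and nerve, stood at 107, 110, 118 and 96.3 CPM in the iSAN and at 57.2, 62.8, 74.5 and 58.1 CPM in the RA. The groups were apart (log2 0.77 ± 0.10, adjusted p = 9.2e-04). The neuronal pore Scn3a was higher by 2.38 ± 0.37 (adjusted p = 0.0026), and the auxiliary subunit Scn3b by 1.99 ± 0.35 (adjusted p = 0.0044), both on the log2 scale.

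Potassium channel genes gave 7 lower and 2 higher of 20 tested (median -0.33); the lower count was 4 without the RA library of rat 3 or rat 4 or the iSAN library of rat 3, and 11 without the iSAN library of rat 1. Kcnj11, the pore of the ATP-sensitive channel, stood at 106, 87.2, 102 and 112 CPM in the iSAN and at 150, 139, 159 and 170 CPM in the RA, with no overlap (log2 -0.60 ± 0.09, adjusted p = 0.0024). Kcnj12, a pore of the current that holds the resting potential, was lower by -0.35 ± 0.07 on the log2 scale (adjusted p = 0.0089). The 2 higher genes were Kcnn3, a small-conductance calcium-activated channel (log2 2.78 ± 0.48, adjusted p = 0.0045), and Kcnk1, the leak channel TWIK1 (log2 2.47 ± 0.52, adjusted p = 0.010).

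In calcium cycling, Sln, the atrial inhibitor of the sarcoplasmic reticulum pump, was lower in the iSAN, at 1304, 1055, 1286 and 1467 CPM against 2014, 1907, 2051 and 2120 CPM (log2 -0.66 ± 0.11, adjusted p = 0.0030). Atp2b4, a plasma membrane calcium pump, was higher, at 104, 72.9, 112 and 89.1 CPM against 45.3, 51.5, 49.4 and 48.5 CPM (log2 0.96 ± 0.12, adjusted p = 9.2e-04). Neither gene's groups overlapped. Of 12 connexin and intercalated disc genes, 6 were lower (50.0%) and 2 were higher (16.7%), against 6.16% and 10.4% over all tested genes. The higher count was 1 without any single RA library or the iSAN library of rat 2, 3 or 4. The lower ones included Cdh2, the cadherin of the disc, with -0.62 ± 0.11 (adjusted p = 0.0050), Xirp1, an actin-binding disc protein, with -0.78 ± 0.14 (adjusted p = 0.0062), and Jup, plakoglobin, with -0.40 ± 0.08 (adjusted p = 0.0088).

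Of 15 tested adrenergic and cholinergic receptor genes, 3 were higher and 3 were lower; the higher count was 1 without the RA library of rat 1 or rat 4 or the iSAN library of rat 3, and 6 without the iSAN library of rat 1, and the lower count was 5 without the iSAN library of rat 2. Chrm2, the muscarinic receptor of the vagal brake, stood at 187, 143, 159 and 169 CPM in the iSAN and at 206, 239, 217 and 223 CPM in the RA. Every iSAN library was lower, by a modest margin (log2 -0.43 ± 0.09, adjusted p = 0.011). Bche, which breaks down choline esters, was lower by -0.50 ± 0.10 on the log2 scale (adjusted p = 0.0095). Adra2a, a receptor that limits noradrenaline release from sympathetic endings, stood at 1.04, 0.773, 0.888 and 1.80 CPM in the iSAN and at 0.103, 0.0521, 0 and 0.204 CPM in the RA (log2 3.55 ± 0.62, adjusted p = 0.0042). Adrb1, the main cardiac beta receptor, gave -0.29 ± 0.15 (adjusted p = 0.21).

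Chrna7, a neuronal nicotinic receptor subunit, stood at 0.901, 3.86, 2.53 and 0.874 CPM in the iSAN and at 0.515, 0.364, 0 and 0 CPM in the RA. The groups did not overlap, and the log2 fold change of 3.17 ± 0.90 passed the test narrowly (adjusted p = 0.043). The call was lost when any RA library, or the iSAN library of rat 2 or rat 3, was left out (adjusted p up to 0.10), and with the rat as a block it just missed the threshold (adjusted p = 0.0503). Adrb3, the beta receptor of fat, had 944 counts in the iSAN and 0 in the RA, which made it at least 310-fold higher against a floor of 3 counts over the RA group. It did not pass the test (adjusted p = 0.063) and passed with the rat as a block (adjusted p = 2.0e-04) and without the iSAN library of rat 1 (adjusted p = 0.0043). Its iSAN level was 1.04 CPM in rat 1 and 27.2 CPM in rat 2.

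Of 15 tested autonomic neuron genes, 8 were higher and none was lower, with a median log2 fold change of 2.37. A further 15 were under the low-count filter. A gene near 0 in the RA could pass that filter only through its iSAN counts. The count and the median therefore describe the tested members and not the whole list. The count of higher genes was 5 without the RA or iSAN library of rat 3 and 4 without the RA library of rat 4, and 1 gene was lower without the iSAN library of rat 2. Gap43, a protein of growing nerve endings, stood at 3.22, 10.2, 6.04 and 3.93 CPM in the iSAN and at 1.08, 1.15, 0.827 and 1.43 CPM in the RA (log2 2.37 ± 0.37, adjusted p = 0.0027). Elavl4, a neuronal RNA-binding protein, was higher by 4.24 ± 0.66 on the log2 scale (adjusted p = 0.0025). Cholinergic ganglion genes under the filter were counted mostly in the iSAN. Slc18a3, the vesicular acetylcholine transporter, had 3, 169, 13 and 13 counts there and 0 in each RA library, and Chrna3, the ganglionic nicotinic subunit, had 1, 89, 11 and 12 counts and 0. The iSAN of rat 2 held most of these counts, and without the filter neither passed the test (adjusted p = 0.27 and 0.22).

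Of 17 tested Schwann cell and glia genes, 12 were higher and none was lower (median 1.34); 1 was lower without the iSAN library of rat 4. Their summed level was 315, 572, 437 and 1022 CPM in the iSAN and 194 to 221 CPM in the RA. Lgi4, a secreted Schwann cell factor needed for myelination, stood at 21.6, 26.0, 25.7 and 23.4 CPM in the iSAN and at 8.50, 9.58, 9.15 and 9.83 CPM in the RA. The groups were far apart relative to their spread (log2 1.38 ± 0.10, adjusted p = 4.9e-05). Cdh19, a glial cadherin, was higher by 1.39 ± 0.17 on the log2 scale (adjusted p = 8.0e-04). Among neurotrophic and guidance genes, 8 of 21 tested were higher and 1 was lower, or 2 without the iSAN library of rat 1. Ntrk2, the receptor of brain-derived neurotrophic factor, stood at 48.0, 65.8, 71.2 and 81.2 CPM in the iSAN and at 19.6, 24.8, 18.2 and 18.7 CPM in the RA (log2 1.71 ± 0.16, adjusted p = 3.6e-04). The semaphorins Sema3c and Sema3d, which steer growing nerve fibers, were higher by 1.31 ± 0.17 (adjusted p = 0.0016) and 1.30 ± 0.14 (adjusted p = 4.1e-04).

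The smallest p of any lower gene belonged to Igf2. This fetal growth factor (ENSRNOG00000020369, chromosome 1, 215828102 to 215846911) stood at 32.7, 47.0, 43.0 and 33.0 CPM in the iSAN and at 287, 352, 365 and 354 CPM in the RA. No iSAN library came near the RA range, and the level was 8.72-fold lower (log2 -3.12 ± 0.14, adjusted p = 1.6e-06). The microRNA gene Mir675 (ENSRNOG00000040350, chromosome 1, 215745981 to 215746064) ends 82038 bases before Igf2 begins in the same annotation and lies in the imprinted H19 transcript, which was not analysed here. It stood at 2.51, 3.15, 3.15 and 1.91 CPM in the iSAN and at 31.5, 49.7, 44.0 and 40.9 CPM in the RA (log2 -3.95 ± 0.19, adjusted p = 3.1e-06). The low side of both contrasts was the iSAN in all 4 rats.

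Of 29 tested microRNA genes, 2 were called, and both were lower in the iSAN: Mir675 and Mir208b. Over all tested genes 16.6% were called and 6.16% were lower, so this count is not read as a result about microRNA genes. Mir208b, which lies within the slow myosin gene Myh7, stood at 1.85, 1.31, 1.29 and 1.37 CPM in the iSAN and at 2.47, 5.00, 3.36 and 2.34 CPM in the RA (log2 -1.18 ± 0.29, adjusted p = 0.021). Its call was lost without the RA library of rat 2 or rat 3 or the iSAN library of rat 3 (adjusted p up to 0.062). It falls outside the rule for named genes and was chosen after its values were seen. The libraries covered the whole transcriptome, so reads at a microRNA gene count its precursor or host transcript and do not measure the mature form. The mature sequences are shown, from RefSeq on build GRCr8, because these are the called microRNA genes; capitals mark the seed, bases 2 to 8, which pairs with targets.
rno-miR-675-5p: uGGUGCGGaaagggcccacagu
rno-miR-675-3p: uGUAUGCCcuaaccgcucagu
rno-miR-208b-5p: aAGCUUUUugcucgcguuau
rno-miR-208b-3p: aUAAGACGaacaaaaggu
The 4 seeds differ from each other. Each miR-675 seed was unique among 724 mature sequences in the table, and each miR-208b seed was shared by 2 of them, itself included.

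Across the other regions, the RA stood out for both genes of this locus. On the 18-library scale, Igf2 was at 315 CPM ± 33.1 in the RA, 35.6 ± 6.75 in the iSAN, 43.9 ± 15.6 in the LA and 27.6 ± 2.04 in the LV (SD; n = 4, and 2 for the LV). The sSAN spread widely, from 47.7 to 273 CPM, and reached into the RA range. Mir675 followed the same order at the top, with 38.5 CPM ± 7.0 in the RA, 12.6 ± 13.7 in the sSAN, 11.6 ± 5.6 in the LA and 2.46 ± 0.554 in the iSAN. Neither gene differed between the iSAN and sSAN by the test (adjusted p = 0.44 each).

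**Figure D3:**
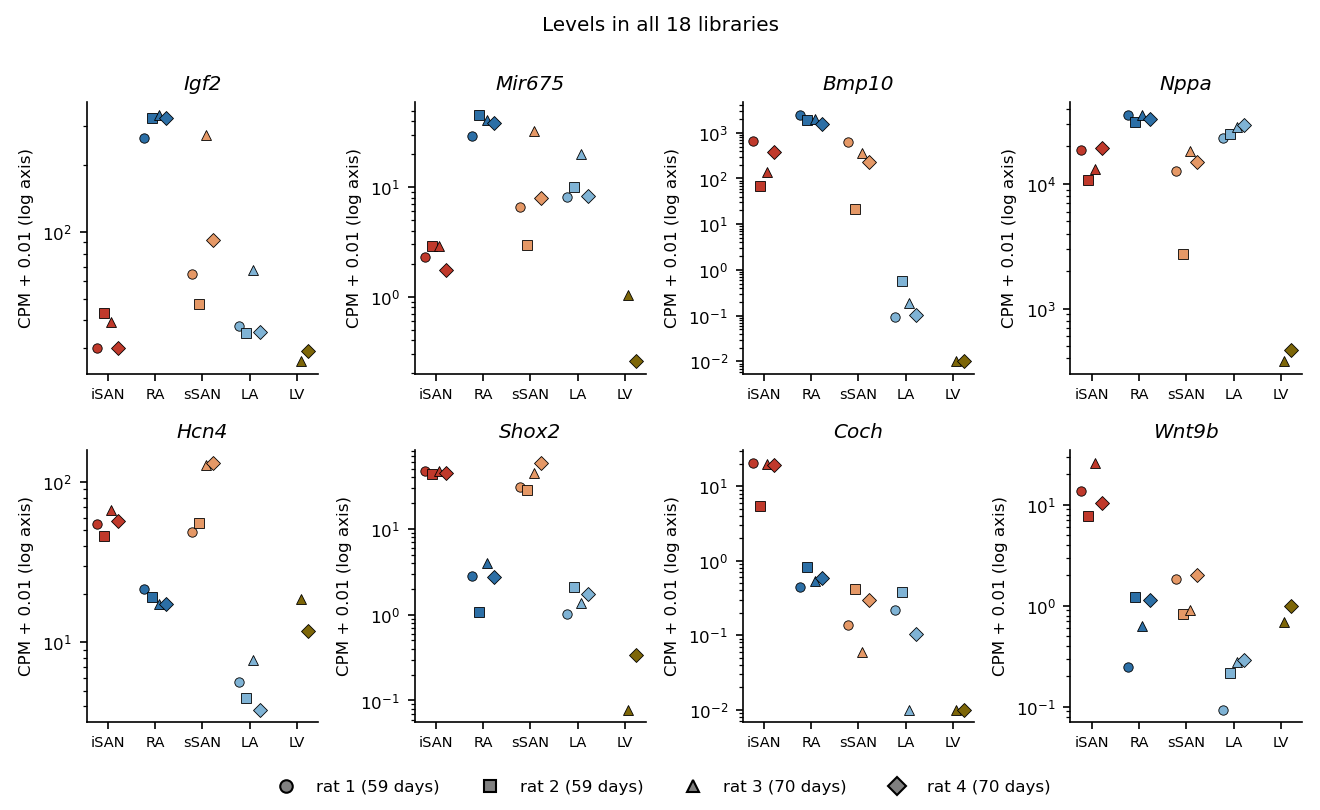
CPM plus 0.01 on log axes in all 18 libraries, by region, with a marker shape for each rat. Igf2 and Mir675 are highest in the RA apart from 1 sSAN library that reaches its range, Hcn4 and Shox2 are high in both nodes, and Coch and Wnt9b are highest in the iSAN.

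Of 12 tested genes of the insulin-like growth factor axis, 4 were higher and 4 were lower, Igf2 and Mir675 among the lower ones. Igf1, the postnatal ligand, stood at 54.3, 84.3, 85.2 and 100 CPM in the iSAN and at 38.1, 36.7, 49.4 and 46.7 CPM in the RA, so the sister ligands lay on opposite sides (log2 0.92 ± 0.18, adjusted p = 0.010). Igf2r, the receptor that clears IGF2, was lower by -0.52 ± 0.10 (adjusted p = 0.0059), and the RNA-binding protein Igf2bp2 by -0.99 ± 0.22 (adjusted p = 0.014), on the log2 scale. Of the secreted binding proteins, Igfbp6, which prefers IGF2, was 4.08-fold higher, at 99.9, 106, 121 and 162 CPM against 42.3, 28.7, 19.5 and 29.4 CPM (log2 2.03 ± 0.25, adjusted p = 0.0017). Igfbp4 was higher by 1.44 ± 0.24 (adjusted p = 0.0061) and Igfbp7 by 0.60 ± 0.09 (adjusted p = 0.0023).

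The BMP and TGF-beta axis contained strong differences in both directions, 9 higher and 6 lower of 22 tested. Grem1, a secreted BMP antagonist, was higher by 3.46 ± 0.45 on the log2 scale (adjusted p = 9.7e-04). Ligands divided: Bmp7 was higher by 4.48 ± 0.53 (adjusted p = 6.1e-04) and the activin subunit Inhba by 2.78 ± 0.35 (adjusted p = 0.0011), while Bmp5 was lower by -1.68 ± 0.17 (adjusted p = 2.9e-04). Smad6, an intracellular brake that BMP signaling itself induces, stood at 34.2, 23.7, 30.3 and 27.8 CPM in the iSAN and at 48.9, 47.6, 45.1 and 49.9 CPM in the RA, with no overlap (log2 -0.72 ± 0.10, adjusted p = 0.0016).

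In the WNT axis 13 of 26 tested genes were higher and none was lower (median 0.87). With the rat as a block or without the iSAN library of rat 1, 1 was lower. The summed level of the list overlapped between the groups, at 1037 to 1231 CPM in the iSAN and 1063 to 1270 CPM in the RA. Sfrp5, a secreted WNT antagonist, stood at 7.21, 16.3, 7.502 and 13.5 CPM in the iSAN and at 1.55, 1.72, 1.34 and 0.866 CPM in the RA (log2 3.02 ± 0.33, adjusted p = 5.1e-04), and the related Sfrp4, Sfrp2 and Sfrp1 were higher by 2.97 (adjusted p = 7.7e-04), 1.65 (adjusted p = 0.0011) and 0.77 (adjusted p = 0.0015). The ligand Wnt9b stood at 14.9, 8.32, 28.5 and 11.5 CPM in the iSAN and at 0.258, 1.30, 0.672 and 1.22 CPM in the RA (log2 4.19 ± 0.55, adjusted p = 0.0026). Against the sSAN its log2 fold change was 3.36 (adjusted p = 0.17).

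Fibroblast and matrix genes gave 15 higher of 20 tested and matrix proteases and their inhibitors 11 of 16, with no lower gene in either list and medians of 1.07 and 0.69. Col1a1, the main fibrillar collagen chain, stood at 2067, 2542, 2317 and 1613 CPM in the iSAN and at 629, 652, 427 and 375 CPM in the RA (log2 2.04 ± 0.21, adjusted p = 4.7e-04). Fbln5, which assembles elastic fibers, stood at 37.2, 39.999, 48.3 and 38.6 CPM against 14.5, 13.3, 15.4 and 15.8 CPM (log2 1.48 ± 0.10, adjusted p = 4.7e-05). Neither gene overlapped between groups. The gelatinase Mmp2 and its inhibitor Timp2 were both higher, by 0.89 ± 0.11 (adjusted p = 7.3e-04) and 0.56 ± 0.08 (adjusted p = 0.0017).

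Smooth muscle genes gave 8 higher and no lower gene of 14 tested (median 1.04); the count was 5 without the RA library of rat 2 or the iSAN library of rat 2 or rat 3, and 3 genes were lower without the iSAN library of rat 1 and 1 without the RA library of rat 2. With the rat as a block, 6 were higher and 2 were lower. The summed level of the list overlapped between the groups, at 3221 to 4126 CPM in the iSAN and 3183 to 3734 CPM in the RA. Actg2, an actin of visceral smooth muscle, stood at 16.5, 21.3, 32.9 and 12.5 CPM in the iSAN and at 0.515, 0.364, 0.724 and 1.43 CPM in the RA (log2 4.77 ± 0.46, adjusted p = 6.0e-04). Endothelial genes were mixed, with 3 higher and 2 lower of 16, or 5 lower without the iSAN library of rat 1 and 4 lower with the rat as a block. Emcn, a sialomucin of capillaries and veins, was lower, at 52.4, 45.8, 51.2 and 50.5 CPM against 97.5, 109, 82.3 and 79.9 CPM (log2 -0.88 ± 0.10, adjusted p = 6.0e-04). Of 8 lymphatic genes 2 were higher. Mmrn1, a secreted protein of lymphatic vessels and platelets, stood at 14.8, 16.3, 29.8 and 20.9 CPM against 0.206, 0.208, 0.310 and 0.0509 CPM (log2 6.68 ± 0.37, adjusted p = 1.9e-05), whereas the lymphatic factor Prox1 gave -0.49 (adjusted p = 0.080) and Lyve1 -0.19 (adjusted p = 0.57). Prox1 passed without the iSAN library of rat 1 (adjusted p = 0.025) and Lyve1 without the RA library of rat 3 (adjusted p = 0.041), both as lower.

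**Figure D4:**
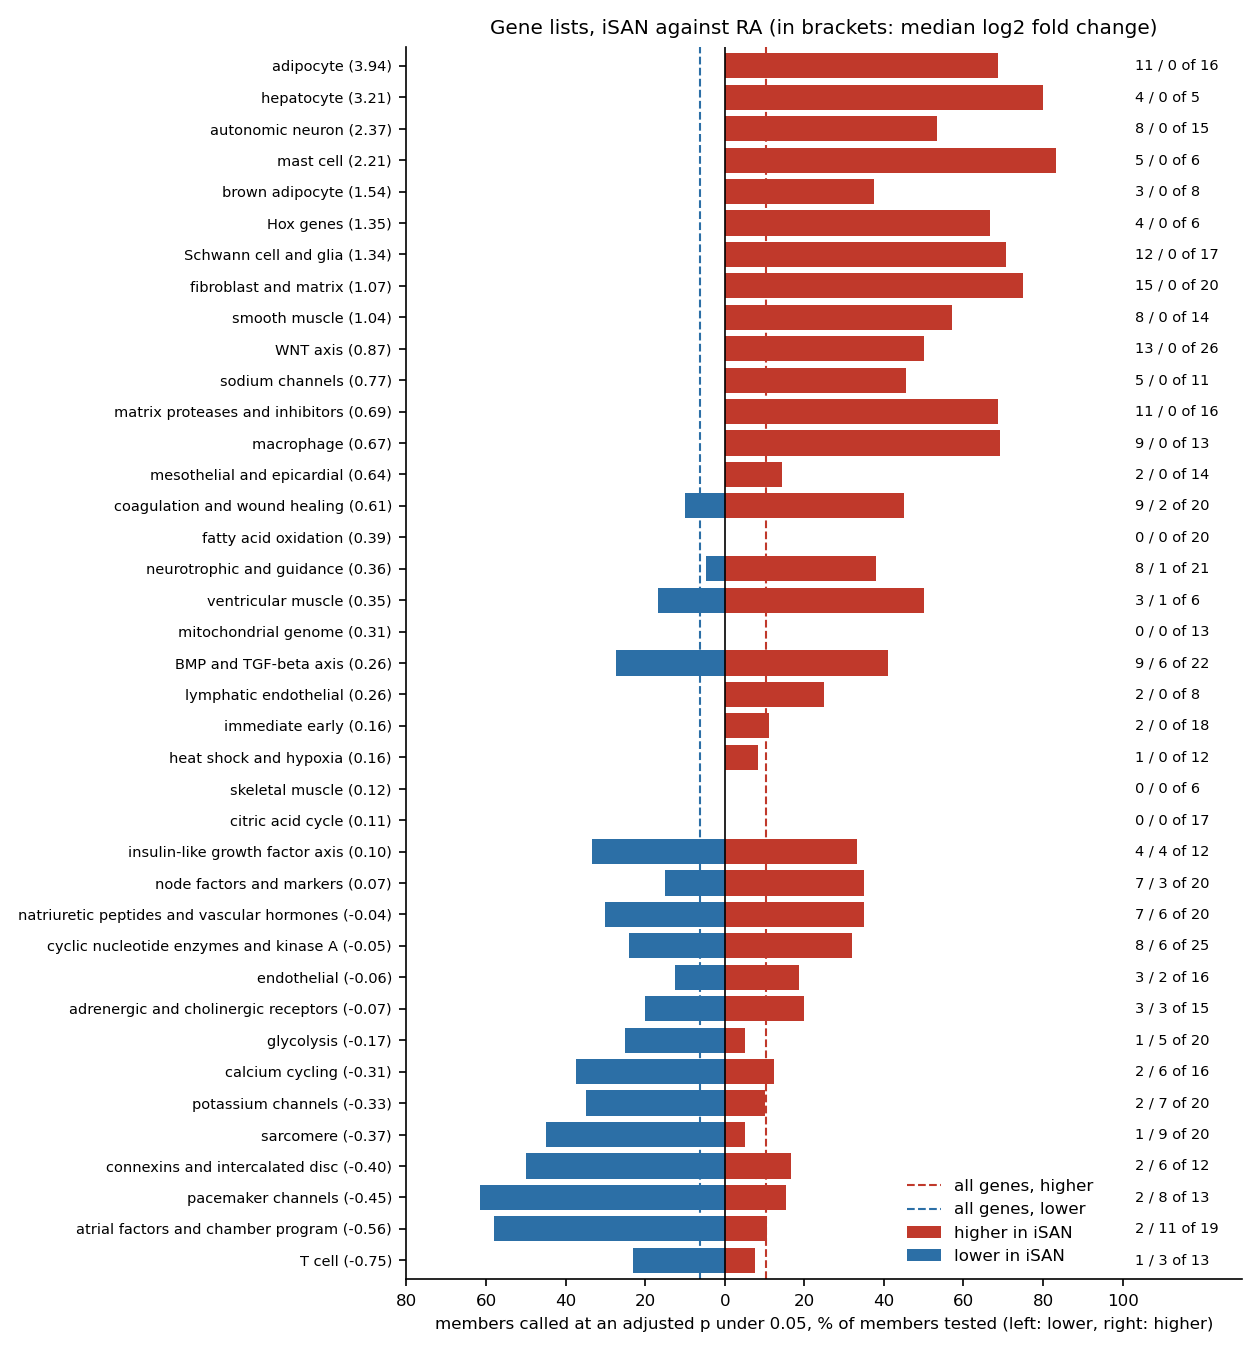
Bars give the percent of tested list members higher (red, right) or lower (blue, left) in the iSAN, for lists with at least 5 tested genes, in order of their median log2 fold change (in brackets); dashed lines mark 10.4% and 6.16%, the shares over all genes. Adipocyte, hepatocyte, neuron and mast cell lists lie at the top, and pacemaker channel, atrial and T cell lists at the bottom. Members under the low-count filter are left out.

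Adipocyte genes had the highest median of any list, 3.94, with 11 higher and none lower of 16 tested; this count was 7, 6 and 5 without the RA library of rat 1, 3 or 4, and 6 with the rat as a block. Their median log2 difference ranged from 0.99 in rat 1 to 5.28 in rat 2. Fatty acid oxidation and citric acid cycle genes gave 0 calls among 20 and 17 tested by edgeR and 0 by DESeq2, with 5 and 0 genes at an unadjusted p under 0.05. Without the iSAN library of rat 1 or rat 2, 3 genes or 1 gene of fatty acid oxidation were higher. The list of 13 mitochondrial genome genes gave 0 calls by both tools and 4 genes at an unadjusted p under 0.05. It gave 1 call without the iSAN library of rat 2. The median difference of this list was 0.93 in rat 2 and -0.09 to 0.22 in the others. The list is not the whole mitochondrial genome. Of 11 tested genes annotated as mitochondrial tRNA, 2 were higher and 0 lower by edgeR, and of 2 mitochondrial rRNA genes 0 were called. Whether fat or mitochondrial content contributed to other differences was not tested. Of 20 glycolysis genes 5 were lower and 1 was higher; Pgam2, the muscle phosphoglycerate mutase, was lower by -0.69 ± 0.10 (adjusted p = 0.0016) and Slc2a1, the basal glucose transporter, by -1.07 ± 0.19 (adjusted p = 0.0052). The glycolysis count fell to 2 or 3 lower genes without any single RA library or the iSAN library of rat 2 or rat 3.

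**Figure D5:**
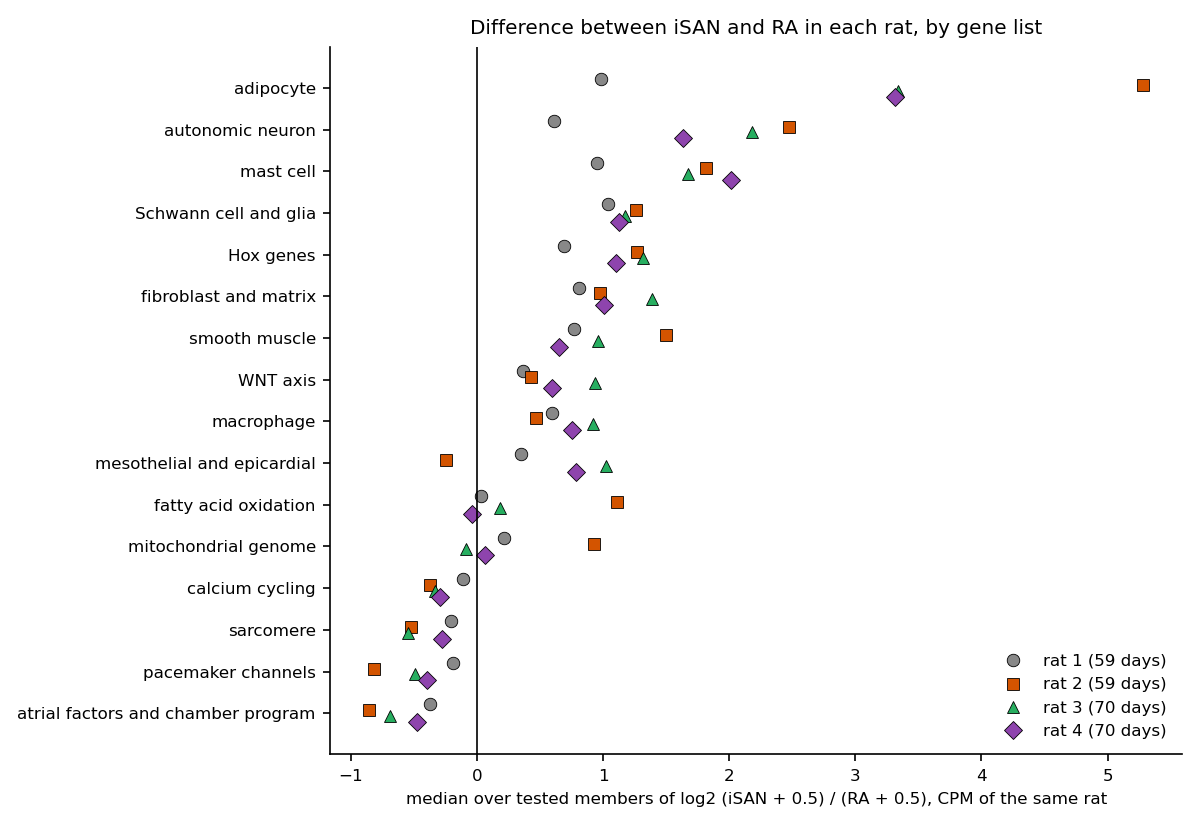
Each point is the median, over the tested members of a list, of the log2 difference between the iSAN and RA of 1 rat, after adding 0.5 CPM. Of the lists drawn, the adipocyte and neuron lists have the widest ranges, with rat 1 lowest; Schwann cell and matrix lists are above 0 and atrial and pacemaker lists under 0 in all 4 rats.

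Macrophage genes were higher in 9 of 13 tested and lower in none (median 0.67). Mrc1, a scavenging receptor of resident macrophages, stood at 66.8, 71.5, 72.0 and 71.9 CPM in the iSAN and at 42.1, 51.2, 34.4 and 36.6 CPM in the RA (log2 0.78 ± 0.11, adjusted p = 0.0017). Mast cell genes were higher in 5 of 6 (median 2.21), among them the protease Cma1, at 2.70, 7.25, 5.37 and 8.14 CPM against 1.03, 1.41, 0.931 and 0.866 CPM (log2 2.46 ± 0.34, adjusted p = 0.0015). T cell genes gave 1 higher and 3 lower of 13; the lower count was 1 without the RA library of rat 3 or rat 4 or the iSAN library of rat 2. Their summed level was 50.8 to 63.7 CPM in the iSAN and 46.1 to 58.0 CPM in the RA, and in each rat it was higher in the iSAN. Cd8a, the co-receptor of cytotoxic T cells, stood at 1.94, 2.14, 1.60 and 2.18 CPM in the iSAN and at 3.50, 3.85, 3.88 and 4.48 CPM in the RA (log2 -1.0 ± 0.19, adjusted p = 0.0063). The T cell co-receptor Cd4, which rat macrophages also carry, was higher (log2 0.51 ± 0.11, adjusted p = 0.010).

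Markers of tissue from outside the heart were checked in the same libraries. No lung epithelial gene and no thymus or parathyroid gene passed the low-count filter. Of 5 tested hepatocyte genes 4 were higher, 2 without any single RA library. A further 3 were under the low-count filter. As with the neuron genes, a gene near 0 in the RA could be tested only through its iSAN counts. The count therefore describes the tested members and not the whole list. Serpina1, a liver antiprotease that macrophages also make, had 167 counts in the iSAN and 1 in the RA, a depth-scaled ratio of 164.5 (95% exact interval 29.1 to 6537, counting error only). Red cell genes Hbb and Alas2 were higher by 2.01 ± 0.39 (adjusted p = 0.015) and 2.25 ± 0.45 (adjusted p = 0.0079) on the log2 scale. The part of such tissue or blood in the other differences was not tested.

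Position along the body axis is recorded by Hox genes. The list of Hox genes and their cofactors held 24 genes in 27 rows of the table, of which 6 rows were tested and 21 were under the filter. Of the 6, 4 were higher and none was lower. As with the neuron genes, a gene near 0 in the RA could be tested only through its iSAN counts. Hoxb3 stood at 3.08, 4.70, 5.24 and 5.02 CPM in the iSAN and at 0.979, 0.416, 0.569 and 1.27 CPM in the RA (log2 2.47 ± 0.34, adjusted p = 0.0014). Hoxb2 and Hoxb4, its neighbors in the cluster, were higher by 1.96 ± 0.29 (adjusted p = 0.0019) and 3.01 ± 0.53 (adjusted p = 0.0050). Hoxc4 and Hoxc5 were under the filter, with 79 and 61 counts in the iSAN and 0 in the RA, at least 25.9-fold and 20.03-fold higher against a floor of 3 counts over the RA group.

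Enzymes of cyclic nucleotides, the messengers through which autonomic input changes heart rate, gave 8 higher and 6 lower genes of 25. The higher count was 3 without any single RA library and 4 without the iSAN library of rat 3, and the lower count was 3 without the RA library of rat 1 or rat 4 or the iSAN library of rat 3 or rat 4. Adcy1, a calcium-stimulated adenylyl cyclase of node cells and neurons, stood at 6.12, 9.63, 5.68 and 6.06 CPM in the iSAN and at 2.06, 2.19, 1.09 and 1.78 CPM in the RA (log2 1.94 ± 0.26, adjusted p = 0.0012). Pde3a, a phosphodiesterase of heart muscle, was lower, at 75.8, 55.1, 66.5 and 69.0 CPM against 89.5, 107, 101 and 99.7 CPM (log2 -0.58 ± 0.10, adjusted p = 0.0041). Npr3, the clearance receptor of natriuretic peptides, was lower by -1.23 ± 0.11 on the log2 scale (adjusted p = 2.0e-04).

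Of the genes with the smallest p, Thbs4, a matrix thrombospondin of tendon and stressed heart, stood at 8.87, 12.2, 8.21 and 10.8 CPM in the iSAN and at 0.103, 0.208, 0.207 and 0.102 CPM in the RA. It was 62.1-fold higher (log2 5.96 ± 0.27, adjusted p = 1.6e-06). Mt2A, a metal-binding metallothionein, was higher by 2.43 ± 0.14 (adjusted p = 1.5e-05) and S1pr3, a sphingosine phosphate receptor, by 1.16 ± 0.08 (adjusted p = 5.0e-05). Sall1, a zinc finger factor, was lower, at 7.02, 3.39, 5.59 and 4.91 CPM against 18.4, 24.8, 19.9 and 17.5 CPM (log2 -1.94 ± 0.20, adjusted p = 4.0e-04). Enpep, the aminopeptidase that trims angiotensin, was lower by -1.14 ± 0.11 (adjusted p = 2.5e-04).

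The gene row with the smallest p of all higher genes was uncertain. The symbol Nfs1, a mitochondrial cysteine desulfurase, is carried by 2 rows of chromosome 3. The first (152200936 to 152222647) stood at 33.1, 34.4, 38.2 and 29.6 CPM in the iSAN and at 0.722, 0.469, 1.19 and 0.967 CPM in the RA. The second (151665814 to 151688149), chosen after its values were seen, stood at 0.664, 0.416, 0.844 and 0.546 CPM in the iSAN and at 0.103, 10.8, 13.4 and 29.3 CPM in the RA. Summed over both rows, the iSAN held 33.8, 34.8, 39.1 and 30.1 CPM and the RA 0.825, 11.3, 14.6 and 30.2 CPM, so the groups overlapped and the difference of the first row is not read as one of the gene.

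Between the inferior and superior nodes, 1 of 14301 tested genes was higher (0.00699%) and 0 (0%) were lower by edgeR, while 1398 genes had an unadjusted p under 0.05; DESeq2 gave 75 higher and 61 lower genes. The single gene was Coch, an extracellular matrix protein known from the inner ear, which falls outside the rule for named genes and was chosen after its values were seen. It had a log2 fold change of 6.25 over the sSAN (adjusted p = 0.047) and of 4.82 ± 0.49 over the RA (adjusted p = 8.0e-04), at 22.6, 5.88, 21.9 and 21.5 CPM against 0.464, 0.885, 0.569 and 0.611 CPM. The count against the sSAN was 0 without any single sSAN library or the iSAN library of rat 1, 3 or 4, and 4 without the iSAN library of rat 2. Whether the difference between iSAN and RA itself differed between 59 and 70 days was tested as an interaction: 0 genes (0%) passed by edgeR, with 345 at an unadjusted p under 0.05; DESeq2 was not run on it. Without the iSAN library of rat 1 that count was 108, and without that of rat 2 it was 17.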

How the data were processed

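RNA of 18 tissue pieces from hearts of male Sprague Dawley rats was sequenced, and 8 libraries (4 iSAN, 4 RA) were compared here. Per the study's methods, the authors discarded paired-end Illumina reads that held adapters, undetermined bases or low-quality calls, aligned the rest with HISAT2 to the rat genome of Ensembl release 98 and deposited HTSeq 0.6.1 counts per gene (32883 genes), with FPKM values that the authors derived from the same reads. Parameters of the counting, strand use included, are not given in the sources used here, so overlapping and antisense genes were not told apart; 93 tested genes share a symbol with another gene of the table. Left unused were 72 per-sample normalized columns, 40 columns of fold changes and p-values of the authors' own comparisons and 5 columns of group means.

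Samples were grouped by the tissue label. Counts were fitted with edgeR 4.0.16 in R 4.3.3 (TMM normalization, filterByExpr, robust quasi-likelihood test, Benjamini-Hochberg adjustment over all tested genes, threshold 0.05), with the 4 iSAN and 4 RA libraries and no block. CPM are TMM-scaled. The rat number pairs libraries of 1 animal by the title suffix, and residuals of libraries of the same rat correlated at 0.15, 0.12, 0.17 and 0.26 over 14066 genes. The fit was repeated with the rat as a block, with DESeq2 1.42.0, with the size factors of the RLE method, without filtering genes on their counts, with all 5 regions in 1 fit, for each age alone, without rat 2 and without each library in turn. The procedure was tested on simulated data. Age moves together with the title suffix, and the effects of age and suffix cannot be told apart. Scripts used Python 3.11.15, pandas 2.3.3, SciPy 1.17.1 and matplotlib 3.10.9.

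Genes were named by rule: up to 15 higher and 15 lower genes with the highest fold among those past the stringent threshold, with a mean of 1 CPM or more and 1 direction in all 4 rats; the 10 smallest p in each direction; the members of the pacemaker, node, atrial, receptor and insulin-like growth factor lists; up to 6 members with the smallest p of each other list; and genes the study names for the nodes. Not all of these are described, and some are not reported here. The comparison, the lists and the rule were chosen with earlier results of these data known.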

Additional observations from a re-analysis of the deposited data

Results flagged for a closer look

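In 212 groups of 4 libraries checked over the genes named above, 8 had 1 library far from the other 3, where chance gives about 1 in 20 groups. Igf2 in the RA was 287 CPM in rat 1, against 352 to 365 CPM in the others. Coch in the iSAN was 5.88 CPM in rat 2, against 21.5 to 22.6 CPM. Adcy1 in the iSAN was 9.63 CPM in rat 2, against 5.68 to 6.12 CPM. Mrc1 in the iSAN was 66.8 CPM in rat 1, against 71.5 to 72.0 CPM. Ntm in the iSAN was 1.31 CPM in rat 4, against 0.951 to 0.996 CPM. Hbb in the RA was 29.4 CPM in rat 1, against 10.5 to 12.5 CPM. Mir208b in the iSAN was 1.85 CPM in rat 1, against 1.29 to 1.37 CPM. Serpina1 in the RA was 0.0515 CPM in rat 1, a single count, against 0 in the others.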

How the results depend on the processing

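Against the RA, the 59-day rats alone gave 26 higher and 5 lower genes and 5 and 0 past the stringent threshold, a fit of 2 against 2 libraries; the 70-day rats alone gave 1174, 496, 230 and 11. Without rat 2 there were 1060 and 498, and 142 and 10 stringent ones; DESeq2 gave 1970 and 1233, and 561 and 32, and all 5 regions gave 404 stringent higher genes. Leaving out 1 library gave 1002 to 1795 higher, 432 to 1221 lower, 135 to 394 stringent higher and 10 to 25 stringent lower genes. Against the sSAN, higher and lower calls were 75 and 61 by DESeq2 and 14 and 6 with all 5 regions; the 59-day rats gave 0 higher, the 70-day rats 2 higher and 1 lower, no rat 2 gave 2 higher, and leaving out 1 library gave 0 to 4 higher. The age interaction gave 1 gene with no filter on low counts and 0 to 108 when 1 library was left out. The mitochondrial share kept its difference of 4.21 points in the paired test and ranged from 2.12 to 5.09 points when 1 library was left out. With the replicate block 1627 genes were higher and 1164 lower, and no call of a gene named above changed other than those given beside their results. Genes that did not pass the test changed sign: Lyve1 was 0.12 in the 70-day rats, Hcn2 0.19 and Tbx18 -0.022 in the 59-day rats, and with 1 library left out Hcn2 ranged from -0.30 to 0.073 and Tbx18 from -0.066 to 0.21 (log2). Of 95 called genes named above, the 59-day rats alone kept the call of 13 (Actg2, Col1a1, Fbln5, Igf2, Mir675, Mmrn1, Mt2A, Nfs1, Npr3, S1pr3, Sfrp2, Smoc2 and Thbs4) and 82 missed the threshold. In the 70-day rats alone 11 missed it (Actg2, Adra2a, Bmp10, Cd8a, Hoxb4, Igf2bp2, Mir208b, Myl2, Ntm, Sfrp2 and Slc2a1), and with no filter Bmp10 and Chrna7 did. DESeq2 and the 70-day rats also called Adrb3, Prox1 and the second Nfs1 row, and all 5 regions Adrb3; the second Nfs1 row also passed without the RA library of rat 1. With all 5 regions in 1 fit Cacna1h, Cd4, Kcnj12, Mir208b, Mrc1, Myl7, Nkx2-5, Sall1, Sln and Smad6 missed the threshold, and without rat 2 Hbb, Igf1, Igf2bp2, Igfbp4, Myl2 and Rgs6 did, besides Bmp10, Chrna7 and Mir208b. The cause was not tested. At this depth a gene with 0 RA counts has only a lower bound on its fold.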
